A study of Fukomys damarensis and Heterocephalus glaber and Cavia porcellus with 28 samples.

Results

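The heat shock and chaperonin genes are the families that code for the main protein-folding machines of the cell. They were taken as every row whose mouse symbol starts with Hsp90, Hspa, Hspb, Hspd, Hspe or Hsph, with Dnaja, Dnajb or Dnajc followed by a digit, or with Cct2 to Cct8. This gave 73 of the 13928 rows of each table. By family they are 3 HSP90 genes, 1 HSP110 gene, 11 HSP70 genes, 40 J-domain genes (4 Dnaja, 10 Dnajb and 26 Dnajc), 6 small heat shock protein genes, 2 other genes with an Hspb symbol (Hspb11 and Hspbp1), 2 genes of the mitochondrial chaperonin and 8 subunits of the cytosolic chaperonin. The stress-inducible HSP70 genes Hspa1a and Hspa1b have no row and were not analysed here.

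Total RNA depleted of ribosomal RNA was sequenced from flash-frozen heart and liver of 4 rodent species. The naked mole-rat gave 3 heart and 4 liver libraries, the Damaraland mole-rat 5 of each, the guinea pig 3 of each, and the mouse 3 of heart and 2 of liver. Within a tissue each library came from another animal, and 10 of the 18 animals gave both tissues. The naked mole-rats were 13 to 17 months old, the Damaraland mole-rats 36 to 48 months, the guinea pigs 2.3 months and the mice 2 months. All animals were male by their labels except the female that gave Damaraland liver replicate 4. No strain, treatment or pooling is labelled. Age differed between the species without overlap, so species and age cannot be told apart in any comparison below. The guinea pig and the mouse served as outgroups to the mole-rats.

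Chaperones bind unfolded protein and release it in cycles driven by ATP. J-domain proteins hand clients to HSP70 and set off its ATP hydrolysis, HSP110 proteins exchange the spent nucleotide, and HSP90 completes the folding of kinases, receptors and other signalling proteins. Small heat shock proteins hold unfolded protein without using ATP and are abundant in heart muscle, and the chaperonins are barrel-shaped complexes that enclose a client, with actin and tubulin as the best known clients of the cytosolic ring, which is called CCT or TRiC.

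The values are the authors' variance-stabilised expression levels on a log2-like scale, transformed in each tissue separately. The lowest possible value, that of 0 reads, is 5.36 for heart and 4.29 for liver. A 2-fold change moves the value by 0.940 in heart and 0.970 in liver from 1000 scaled reads but by 0.269 and 0.375 from 10. Scaled reads are recovered reads divided by the size factor of the library. Heart libraries held 4089633 (naked mole-rat replicate 3) to 26985779 reads, and liver libraries 11220505 to 21467939. Differences were fitted with limma, errors on differences are limma standard errors, and a gene was called at a Benjamini-Hochberg adjusted p under 0.05 with a difference of at least 1. After a filter on low values 70 members were tested in heart and 68 in liver. Dnajb13, Dnajc5b and Dnajc5g were too low in both tissues and Hspb2 and Hspb3, genes of muscle, were too low in liver.

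Heat shock and chaperonin genes were called at a rate near or under that of all genes. The average of the mole-rats against the average of the outgroups called 11 of 70 members in heart (15.7%, beside 23.4% of all 10667 genes tested) and 12 of 68 in liver (17.6%, beside 28.1% of 10887). In heart 4 of these were higher (10.8% of all genes were) and 7 lower (12.6%). The liver members split the other way, with 11 higher (15.1% of all genes) and 1 lower (13%). An average can rest on 1 species. Only 2 members in heart and 2 in liver were called with the same sign in all 4 comparisons between mole-rats and outgroups (4.68% and 6.29% of all genes). The naked against the Damaraland mole-rat called 19 members in heart (27.1%, beside 29.4%) and 20 in liver (29.4%, beside 34.2%). Over the other pairs of species in heart, 17 members were called between naked mole-rat and guinea pig (33% of all genes), 21 between naked mole-rat and mouse (38.2%), 21 between Damaraland mole-rat and guinea pig (29.7%), 24 between Damaraland mole-rat and mouse (34.9%) and 20 between guinea pig and mouse (32.1%). The liver counts, in that order, were 14 (37.8% of all genes), 21 (41.2%), 16 (36.2%), 18 (39.2%) and 24 (37.2%). In heart 24 of the 70 members were called between no pair and not on average, in liver 27 of 68, and 13 in neither tissue, among them Hsp90b1, Hspa9, Cct2, Cct4 and Cct8. The same count over all genes is not given here, so these numbers do not set the members apart from other genes. The median member differed by -0.02 in heart and -0.02 in liver in the average comparison, while the median of all genes was -0.01 and 0.02. Reads of all members together made up 1.03% to 1.12% of a naked mole-rat heart library, 1.15% to 1.34% in the Damaraland mole-rat, 1.21% to 1.54% in the guinea pig and 0.957% to 1.05% in the mouse.

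**Figure D1:**
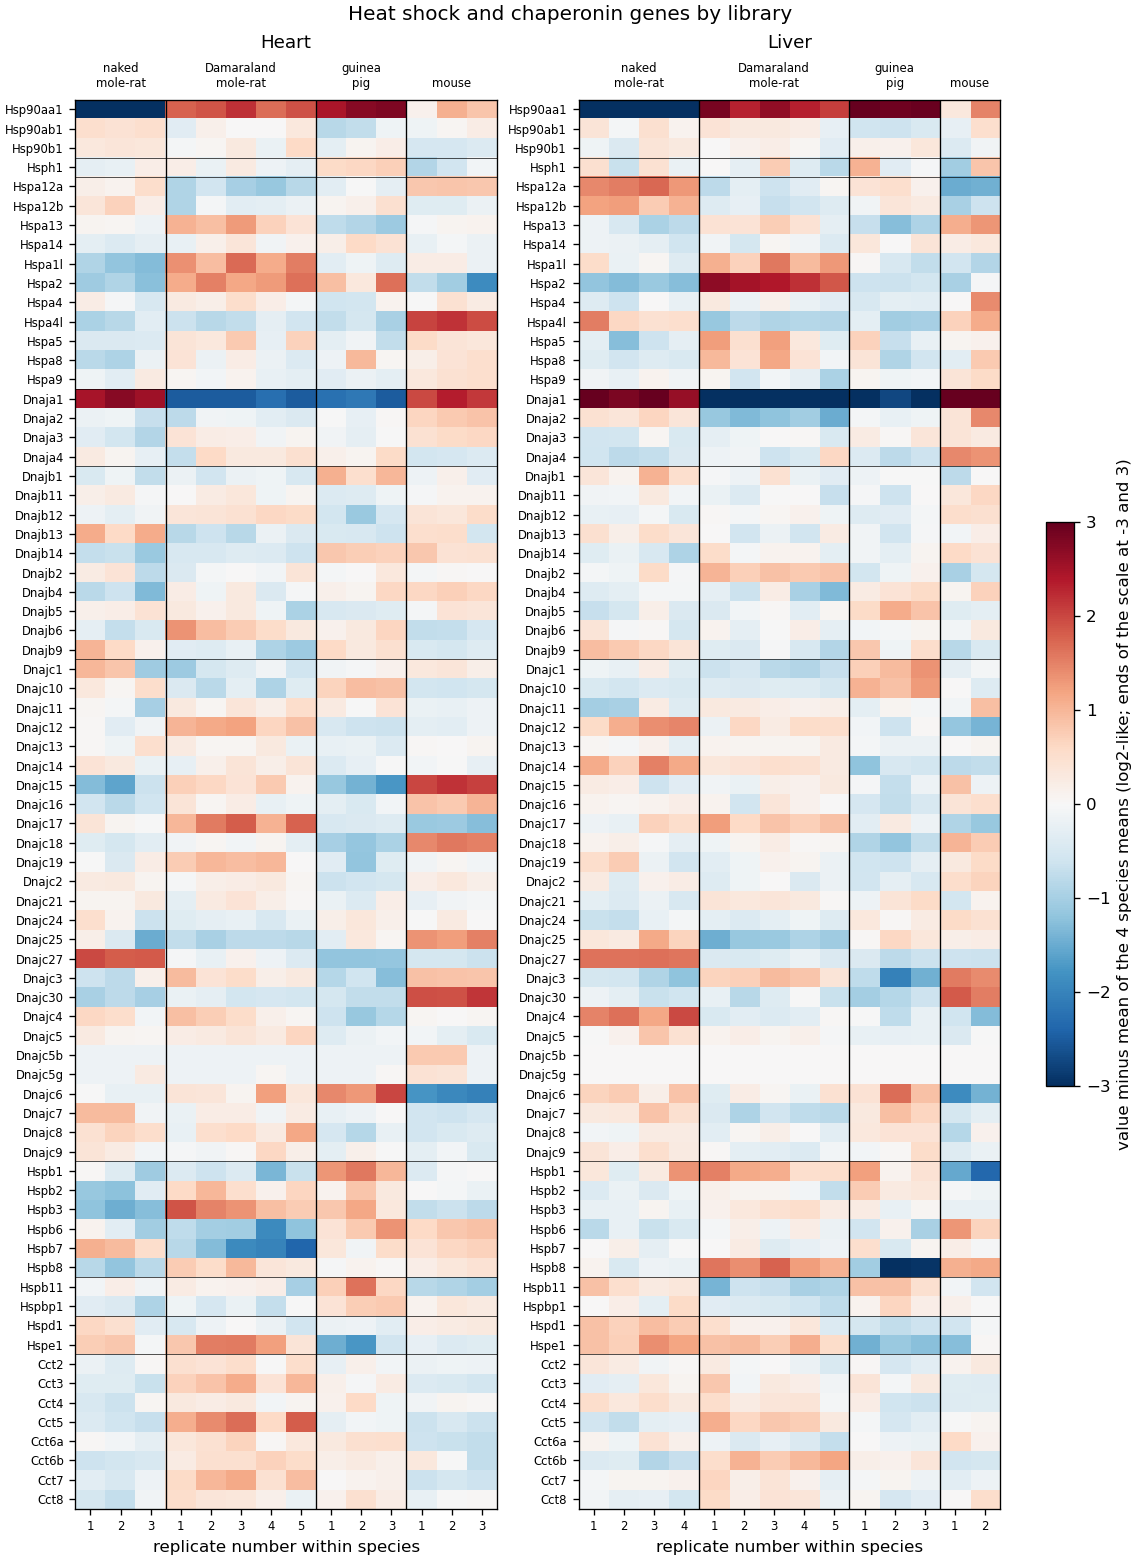
Value of each of the 73 members in each library, centred on the mean of the 4 species means, for heart and liver. Rows are members grouped by family and columns are libraries grouped by species. Colour gives the difference on the log2-like scale and is cut at both ends of the scale. In both tissues Hsp90aa1 is far below the centre in the naked mole-rat. Dnaja1 is below it in the Damaraland mole-rat and the guinea pig and above it in the other species.

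Some properties of the libraries moved with the species. The summed level of 3 hepatocyte markers (Alb, Ttr and Fgb) was 0.0695% to 0.182% of reads in naked mole-rat heart, against 0.0113% to 0.0366% in the Damaraland mole-rat, 0.00283% to 0.0143% in the guinea pig and 0.00136% to 0.00543% in the mouse, with at least 6.77% in every liver. Of 9 immediate early genes, 7 have a row, and their sum was 0.0194% to 0.0319% of reads in naked mole-rat heart against 0.00618% to 0.0143% in the other hearts. The genes did not all go this way. Before scaling for depth, Atf3 had 3 to 17 reads in naked mole-rat hearts against 34 to 248 in the others. Reads of the other genes, among them Fos (224 to 968 against 10 to 238), overlapped with those of other hearts. The summed cardiomyocyte markers Myh6, Actc1 and Tnnt2 were 1.9% to 4.3% in naked mole-rat heart and 7.84% to 10.98% in Damaraland heart. The fibroblast sum (3 genes) was 0.26% to 0.744% in guinea pig heart against at most 0.224% in other hearts, and the endothelial sum (4 genes) 0.0848% to 0.122% against at most 0.0547%. Smooth muscle markers (3 genes) made up 0.0613% to 0.105% of Damaraland heart and at most 0.0358% of other hearts. Acta2 had 6722 to 9670 reads in Damaraland hearts against 404 to 6004 in the others. Damaraland reads of Myh11 (1212 to 2611) and Tagln (557 to 1345) fell within the naked mole-rat ranges (681 to 4467 and 358 to 1689). These reads are not scaled for depth. In liver the bile duct markers (3 genes) reached 0.0132% to 0.0194% in the naked mole-rat and 0.00573% to 0.0178% in the guinea pig, against at most 0.00306% in the Damaraland mole-rat and the mouse. The naked mole-rat sum was mostly Epcam (1817 to 2833 reads, with Krt19 at 154 to 298 and Krt7 at 1 to 4). The guinea pig sum was mostly Krt19 (1080 to 2376 reads, with Epcam at 62 to 142 and Krt7 at 40 to 109). The sums of fibroblast (0.0433% to 0.0674% against at most 0.0335%), endothelial (0.0475% to 0.0528% against at most 0.0285%) and leukocyte markers (4 genes, 0.0228% to 0.0277% against at most 0.0135%) were highest in guinea pig liver. Not every gene was. Before scaling for depth, Cd3e had 1301 to 2347 reads there against at most 29 in other livers. Guinea pig reads of Csf1r (733 to 1491) and Pdgfra (483 to 971) overlapped with those of the naked mole-rat (720 to 2055 and 525 to 1055). Of all these markers, Epcam was at 0 reads in 1 guinea pig and 1 mouse heart, Cd3e in 1 Damaraland heart and 1 naked mole-rat liver, and Atf3 in 1 naked mole-rat liver. The part of these cells in the results below was not tested. In tissue, fewer cells of a type and less RNA per cell cannot be told apart.

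Hsp90aa1, the stress-inducible cytosolic HSP90, was almost without reads in the naked mole-rat. Its heart values were 5.66, 5.36 and 5.80 in the naked mole-rat, 12.59, 12.71, 13.01, 12.49 and 12.74 in the Damaraland mole-rat, 13.27, 13.56 and 13.62 in the guinea pig, and 10.95, 11.88 and 11.65 in the mouse. The naked mole-rat heart libraries held 2, 0 and 1 reads of it, and the liver libraries 4, 1, 0 and 2. Mean scaled reads elsewhere were 7367, 12674 and 3213 in heart of the Damaraland mole-rat, guinea pig and mouse. In liver the values were 4.93, 4.67, 4.29 and 4.68 in the naked mole-rat, 13.82, 13.29, 13.64, 13.31 and 13.05 in the Damaraland mole-rat, 14.02, 13.90 and 13.94 in the guinea pig, and 11.30 and 12.47 in the mouse. No naked mole-rat library came near those of any other species in either tissue. Hsp90aa1 was called lower in the naked mole-rat against each of the other species in heart (differences from -7.88 to -5.89, adjusted p at most 1.59e-12) and in liver (-9.31 to -7.24, adjusted p at most 6.18e-13). The average of the mole-rats was therefore lower as well, at -3.33 ± 0.15 in heart, although the Damaraland mole-rat was above the mouse by 1.21 ± 0.20 (adjusted p = 4.44e-05), a call that was lost without mouse replicate 1. How the rows were matched to genes in each species is not given in the sources used here, so a low transcript level and a gene model that catches few reads cannot be told apart.

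Hsp90ab1, the constitutive cytosolic HSP90 and a close relative of Hsp90aa1, was abundant in every library. In heart its values were 14.77, 14.70 and 14.78 in the naked mole-rat, 13.93, 14.43, 14.29, 14.28 and 14.58 in the Damaraland mole-rat, 13.45, 13.54 and 14.15 in the guinea pig, and 14.16, 14.33 and 14.49 in the mouse. The naked mole-rat libraries were the highest and the only call was against the guinea pig (1.04 ± 0.21, adjusted p = 0.000523), which was lost with quantile normalisation and without guinea pig replicate 1 or 2. The scaled reads of both cytosolic genes together were 29265 to 31119 in naked mole-rat heart, 23946 to 34484 in the Damaraland mole-rat, 23146 to 33912 in the guinea pig and 22198 to 28767 in the mouse, ranges that overlap except between naked mole-rat and mouse. In liver the sum was 12672 to 18322 in the naked mole-rat, below all Damaraland mole-rat (20498 to 33475) and guinea pig (25538 to 27057) libraries and overlapping with the mouse (13931 to 24789). Hsp90b1, the HSP90 of the endoplasmic reticulum, was not called in any comparison in either tissue, with average differences of 0.48 ± 0.13 in heart and 0.04 ± 0.16 in liver.

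Dnaja1, a cytosolic J-domain partner of HSP70, showed the same kind of gap in other species. Heart values were 10.33, 10.59 and 10.40 in the naked mole-rat, 5.36, 5.36, 5.36, 5.58 and 5.36 in the Damaraland mole-rat, 5.62, 5.70 and 5.36 in the guinea pig, and 9.84, 10.22 and 9.99 in the mouse. The Damaraland hearts together held 1 read and the guinea pig hearts 5, while naked mole-rat and mouse hearts averaged 1449 and 1063 scaled reads. Liver values were 11.61, 11.03, 11.81 and 10.81 in the naked mole-rat, 4.29, 4.73, 4.56, 4.62 and 4.76 in the Damaraland mole-rat, 4.67, 5.48 and 4.29 in the guinea pig, and 11.37 and 12.78 in the mouse. Here too the naked mole-rat and the mouse were high and the others near 0 reads, with 6 reads over 5 Damaraland livers and 19 over 3 guinea pig livers. The naked mole-rat was called higher than the Damaraland mole-rat in heart (adjusted p = 4.75e-14) and liver (adjusted p = 1.58e-12). RefSeq's Damaraland mole-rat annotation lists 70 of the 73 symbols, Dnaja1 among them, and not Dnajc16, Hspa1l and Hspe1; whether the authors' annotation holds the same models is not given in the sources used here. The relatives Dnaja2 and Dnaja4 were read in all species in heart. The sum of Dnaja1, Dnaja2 and Dnaja4 in heart was 5335 to 7071 scaled reads in the naked mole-rat, 3145 to 6743 in the Damaraland mole-rat, 5156 to 6909 in the guinea pig and 6892 to 7802 in the mouse. In liver it was 515 to 658 in the Damaraland mole-rat and 1197 to 1322 in the guinea pig, below 3747 to 6124 in the naked mole-rat and 4819 to 11703 in the mouse, so that in liver the groups kept apart after summing.

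**Figure D2:**
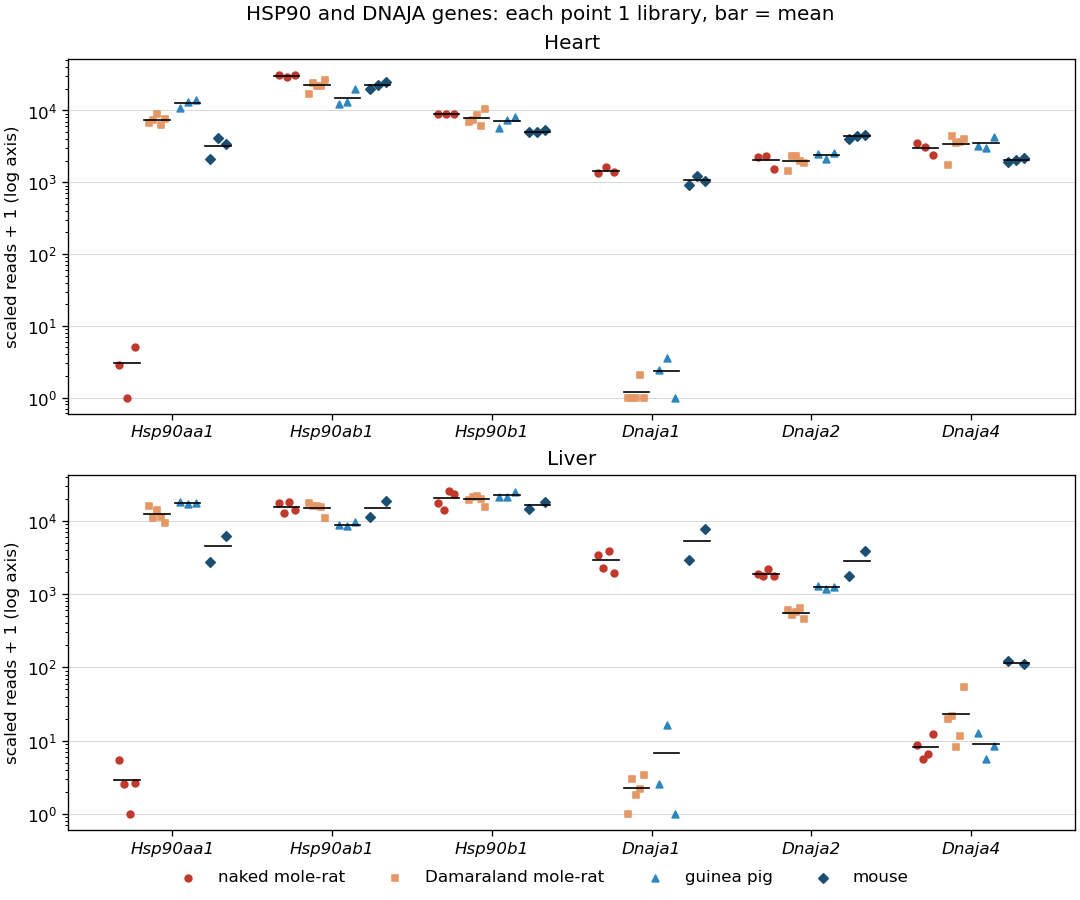
Scaled reads plus 1 (logarithmic axis) of the HSP90 and Dnaja genes in heart and liver. Each point is 1 library and the bar is the species mean. Hsp90aa1 is near 0 reads in the naked mole-rat only, and Dnaja1 in the Damaraland mole-rat and the guinea pig. The related genes stay higher, except that Dnaja4 is also low in naked mole-rat liver (3 to 14 reads) and guinea pig liver (5 to 15 reads).

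Dnaja2, another cytosolic J-domain partner of HSP70, was lower in Damaraland liver than in the liver of each other species. Its liver values were 10.76, 10.69, 10.97 and 10.68 in the naked mole-rat, 9.19, 8.997, 9.11, 9.28 and 8.82 in the Damaraland mole-rat, 10.25, 10.10 and 10.18 in the guinea pig, and 10.70 and 11.77 in the mouse. The Damaraland libraries did not overlap with any others, and the naked mole-rat was higher by 1.70 ± 0.18 (adjusted p = 1.94e-07). In heart the same comparison gave 0.03 ± 0.18 and was not called. Dnaja4 was highest in mouse liver, at 7.18 and 7.08, against at most 6.36 in the other species.

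Of the abundant HSP70 genes, Hspa8 and Hspa5 were called between the mole-rats in liver but not in heart. Hspa8, the constitutive cytosolic HSP70, had liver values of 13.41, 13.19, 13.38 and 13.32 in the naked mole-rat, 14.75, 14.18, 14.94, 14.18 and 13.70 in the Damaraland mole-rat, 14.16, 12.88 and 13.21 in the guinea pig, and 13.46 and 14.56 in the mouse. Its naked mole-rat liver libraries were all below the Damaraland ones (-1.02 ± 0.29, adjusted p = 0.00479). Hspa5, the HSP70 of the endoplasmic reticulum known as BiP, was also lower in naked mole-rat liver (-1.20 ± 0.33, adjusted p = 0.00405), although its ranges met, at 13.21 and 13.11. In heart the differences were -0.61 ± 0.26 for Hspa8 and -0.80 ± 0.21 for Hspa5, neither called. The liver calls sit at the threshold: that of Hspa5 was lost without naked mole-rat replicate 2, and that of Hspa8 without this library, without Damaraland replicate 1 or 3, and with libraries centred on their medians. Hspa9, the HSP70 of the mitochondrial matrix, was called in none of the comparisons in either tissue. Hsph1, the HSP110 gene, was called only in heart between guinea pig and mouse (1.15 ± 0.21, adjusted p = 0.000191), a call that was lost without mouse replicate 1.

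Larger differences fell on less abundant HSP70 genes. Hspa1l and Hspa2, both best known from testis, were high in the Damaraland mole-rat. Heart values of Hspa1l were 7.01, 6.73 and 6.62 in the naked mole-rat, 9.28, 8.86, 9.61, 9.04 and 9.46 in the Damaraland mole-rat, 7.60, 7.79 and 7.54 in the guinea pig, and 8.14, 8.15 and 7.74 in the mouse. The Damaraland hearts were above all others, and the gene was called higher there against each species, with a naked minus Damaraland difference of -2.46 ± 0.18 (adjusted p = 5.41e-09). In liver Hspa1l was again called higher in the Damaraland mole-rat against each species (naked minus Damaraland -1.12 ± 0.22, adjusted p = 0.000248), a call that was lost without naked mole-rat liver replicate 4. Hspa1l belongs to the same group of closely similar genes as Hspa1a and Hspa1b, so its counts are uncertain.

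Hspa2 had liver values of 5.51, 5.41, 5.59 and 5.44 in the naked mole-rat, 9.39, 9.21, 9.12, 8.91 and 8.57 in the Damaraland mole-rat, 6.08, 6.07 and 6.15 in the guinea pig, and 5.73 and 6.66 in the mouse. Every Damaraland liver was above every other liver, by 2.94 ± 0.21 over the guinea pig and 2.84 ± 0.23 over the mouse (adjusted p = 1.48e-09 and 1.52e-08). The heart values were 8.32, 8.47 and 8.13 in the naked mole-rat, 10.50, 10.90, 10.54, 10.65 and 11.03 in the Damaraland mole-rat, 10.27, 9.70 and 11.03 in the guinea pig, and 8.64, 8.33 and 7.48 in the mouse. In heart the guinea pig libraries overlapped with the Damaraland ones, and the naked mole-rat was below both (-2.42 ± 0.27 against the Damaraland mole-rat, adjusted p = 9.48e-07).

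Hspa12a, a distant member of the HSP70 family, went the other way between the mole-rats. Its liver values were 8.95, 9.05, 9.23 and 8.81 in the naked mole-rat, 6.72, 7.23, 6.89, 7.17 and 7.56 in the Damaraland mole-rat, 7.92, 8.003 and 7.64 in the guinea pig, and 6.02 and 6.08 in the mouse. The naked mole-rat was the highest and the mouse the lowest, with no overlap with the other species, and the naked minus Damaraland difference was 1.89 ± 0.17 (adjusted p = 2.33e-08). Heart values were 9.22, 9.14 and 9.55 in the naked mole-rat, 8.13, 8.45, 8.05, 7.90 and 8.19 in the Damaraland mole-rat, 8.72, 9.03 and 8.76 in the guinea pig, and 9.84, 9.87 and 9.84 in the mouse. In heart the naked mole-rat was also above the Damaraland mole-rat (1.16 ± 0.15, adjusted p = 5.37e-06), but the mouse was the highest. Hspa12b, its relative known from endothelium, was likewise higher in naked than in Damaraland liver (1.52 ± 0.16, adjusted p = 2.06e-07). Of the 11 HSP70 genes, the naked against the Damaraland mole-rat called 1 higher and 2 lower in heart (14.2% and 15.2% of all genes were) and 3 higher and 4 lower in liver (16.6% and 17.6%).

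Hspa4l, an HSP110-like nucleotide exchange factor, was shifted in the mouse alone in heart, with values of 8.05, 8.17 and 8.70 in the naked mole-rat, 8.35, 8.18, 8.27, 8.74 and 8.43 in the Damaraland mole-rat, 8.27, 8.48 and 8.03 in the guinea pig, and 11.02, 11.17 and 10.96 in the mouse. The mouse hearts lay far above the other 3 species, which overlapped with each other. Its liver values were 10.10, 9.19, 9.03 and 9.08 in the naked mole-rat, 7.44, 7.78, 7.66, 7.71 and 7.70 in the Damaraland mole-rat, 8.29, 7.53 and 7.58 in the guinea pig, and 9.27 and 9.68 in the mouse. There the naked mole-rat was above the Damaraland mole-rat by 1.69 ± 0.21 (adjusted p = 1.9e-06) and the mouse fell within the naked mole-rat range.

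Among the Dnajb genes, the largest shift shared by the mole-rats was that of Dnajb14, a J-domain protein of the membrane of the endoplasmic reticulum. Its heart values were 8.50, 8.55 and 8.11 in the naked mole-rat, 8.76, 8.74, 8.84, 8.82 and 8.60 in the Damaraland mole-rat, 10.04, 9.96 and 9.93 in the guinea pig, and 10.03, 9.67 and 9.70 in the mouse. Every mole-rat heart was below every outgroup heart. Dnajb14 and Hspb6 were the 2 members called with the same sign in all 4 comparisons between mole-rats and outgroups in heart, both lower, beside 4.68% of all genes in either direction. The average difference was -1.32 ± 0.11 (adjusted p = 1.58e-08). Its smallest comparison, Damaraland mole-rat against mouse at -1.05 ± 0.14, lay close to the threshold, and the call in all 4 was lost without mouse heart replicate 1, with median centring and with quantile normalisation. In liver the average difference was -0.42 ± 0.15.

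Dnajb1, the main stress-inducible J-domain partner of cytosolic HSP70, was highest in guinea pig heart, with 8.30, 8.63 and 8.03 in the naked mole-rat, 8.58, 8.18, 8.58, 8.63 and 8.27 in the Damaraland mole-rat, 9.82, 9.27 and 9.76 in the guinea pig, and 8.60, 8.91 and 8.43 in the mouse. The guinea pig hearts were above all others and were called against each mole-rat (-1.30 for naked minus guinea pig, adjusted p = 4.15e-05), and between the mole-rats the difference was -0.13 ± 0.18. In liver Dnajb1 was called in no comparison. Dnajb9, a J-domain protein of the endoplasmic reticulum that is induced when unfolded protein gathers there, had heart values of 10.93, 10.49 and 10.03 in the naked mole-rat, 9.56, 9.52, 9.69, 8.99 and 8.81 in the Damaraland mole-rat, 10.51, 10.20 and 10.38 in the guinea pig, and 9.44, 9.39 and 9.52 in the mouse and liver values of 11.54, 11.42, 11.23 and 10.997 in the naked mole-rat, 10.25, 10.19, 10.58, 10.14 and 9.74 in the Damaraland mole-rat, 11.42, 10.50 and 11.16 in the guinea pig, and 9.79 and 10.17 in the mouse. In both tissues every naked mole-rat library was above every Damaraland library, by 1.17 ± 0.22 in heart and 1.12 ± 0.20 in liver (adjusted p = 0.000187 and 8.31e-05). The heart call was lost without naked mole-rat replicate 1 and with the replicate number as a block. The guinea pig overlapped with the naked mole-rat in both tissues. Dnajb4, a cytosolic partner of HSP70, was lower in naked mole-rat heart than in the outgroups (-1.20 ± 0.22 and -1.57 ± 0.22), while Dnajb6, known for holding back protein aggregation, was lower than in Damaraland heart (-1.26 ± 0.21, adjusted p = 6.43e-05).

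The Dnajc genes are the largest family here, with 24 tested in each tissue. Dnajc27, which joins a Rab-like GTPase domain to a J domain, was higher in the naked mole-rat in both tissues. Its heart values were 11.10, 10.93 and 10.96 in the naked mole-rat, 9.09, 8.90, 9.25, 8.97 and 8.71 in the Damaraland mole-rat, 7.94, 7.93 and 7.97 in the guinea pig, and 8.58, 8.60 and 8.48 in the mouse, and its liver values were 7.78, 7.79, 7.81 and 7.77 in the naked mole-rat, 5.73, 5.70, 5.78, 5.96 and 5.73 in the Damaraland mole-rat, 5.72, 5.37 and 5.51 in the guinea pig, and 5.53 and 5.52 in the mouse. The naked mole-rat libraries were above all others in each tissue by a wide gap. The difference from the Damaraland mole-rat was 2.02 ± 0.14 in heart and 2.00 ± 0.13 in liver (adjusted p = 2.33e-09 and 5.01e-10). Dnajc27 and Hsp90aa1 were the members called against each of the other species in naked mole-rat heart, 1 higher and 1 lower (9.02% of all genes were called in this way). In liver these were joined by Dnajc4 and Hspa12a, both higher, so that 4 of 68 were called (10.3% of all genes). Both the heart and the liver call of Dnajc27 and Hsp90aa1 were kept under each alternative filter, normalisation, variance model, voom and left-out library in which the gene was tested.

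Dnajc4, listed among mitochondrial members, had liver values of 9.67, 9.83, 9.36 and 10.17 in the naked mole-rat, 7.72, 7.87, 7.78, 7.87 and 8.21 in the Damaraland mole-rat, 8.18, 7.43 and 7.98 in the guinea pig, and 7.60 and 6.89 in the mouse. The naked mole-rat livers were above all others, by 1.87 ± 0.20 over the Damaraland mole-rat (adjusted p = 2.48e-07). In heart the same difference was -0.13 ± 0.21, not called.

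Dnajc17, a nuclear J-domain protein linked to splicing, was higher in the mole-rats on average, most of all in the Damaraland mole-rat. Heart values were 8.53, 8.21 and 8.11 in the naked mole-rat, 9.13, 9.69, 9.94, 9.17 and 9.91 in the Damaraland mole-rat, 7.65, 7.70 and 7.75 in the guinea pig, and 7.01, 7.05 and 6.86 in the mouse. The species followed each other without overlap, from the Damaraland mole-rat down to the mouse, and the average difference was 1.59 ± 0.14 (adjusted p = 5.59e-08). In liver it was 1.08 ± 0.17 (adjusted p = 3e-05), and the naked mole-rat overlapped with the guinea pig; this liver call was lost without naked mole-rat replicate 3 and with quantile normalisation. Dnajc8, a spliceosome-associated member, was the remaining one called higher on average in heart (1.01 ± 0.17, adjusted p = 7.76e-05), a call at the threshold that was lost when naked mole-rat replicate 2, Damaraland replicate 3 or 5, guinea pig replicate 2 or mouse replicate 1 was left out.

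Dnajc12, a partner of the aromatic amino acid hydroxylases, differed between the tissues in which mole-rat was highest. Its heart values were 7.96, 7.60 and 7.83 in the naked mole-rat, 8.94, 9.08, 9.14, 8.57 and 8.81 in the Damaraland mole-rat, 7.44, 7.31 and 7.30 in the guinea pig, and 7.64, 7.62 and 7.78 in the mouse. Damaraland hearts were above all others (-1.11 for naked minus Damaraland, adjusted p = 7.25e-06). Its liver values were 9.42, 9.94, 10.23 and 10.31 in the naked mole-rat, 8.67, 9.47, 9.10, 9.40 and 9.37 in the Damaraland mole-rat, 8.77, 8.24 and 8.89 in the guinea pig, and 7.69 and 7.46 in the mouse. In liver the naked mole-rat was the highest and overlapped with the Damaraland mole-rat at 9.42 and 9.47, the difference of 0.78 ± 0.21 was not called, and the average of the mole-rats was above the outgroups by 1.48 ± 0.17 (adjusted p = 8.85e-07).

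Dnajc14, a membrane J-domain protein known for its part in receptor export, was higher in both mole-rats in liver. Its values there were 11.60, 11.19, 12.01 and 11.64 in the naked mole-rat, 10.83, 10.89, 11.01, 10.96 and 10.76 in the Damaraland mole-rat, 9.28, 10.004 and 9.93 in the guinea pig, and 9.72 and 9.74 in the mouse. Every mole-rat liver was above every outgroup liver, and the average difference was 1.51 ± 0.14 (adjusted p = 6.99e-08). Dnajc14 and Hspe1 were the 2 members called in all 4 comparisons between mole-rats and outgroups in liver, both higher, beside 6.29% of all genes in either direction. The call of Dnajc14 in all 4 was lost without guinea pig replicate 1. In heart its average difference was 0.34 ± 0.13.

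In mouse heart 6 of 70 members were called against each other species (8.57%, beside 10.4% of all genes): Dnajc15, Dnajc18, Dnajc25, Dnajc30 and Hspa4l higher and Dnajc6 lower. Dnajc30, a mitochondrial inner membrane protein, had heart values of 6.13, 6.32 and 6.11 in the naked mole-rat, 6.89, 6.82, 6.54, 6.59 and 6.55 in the Damaraland mole-rat, 6.57, 6.35 and 6.36 in the guinea pig, and 9.02, 8.997 and 9.25 in the mouse and liver values of 6.34, 6.21, 5.83 and 5.90 in the naked mole-rat, 6.28, 5.67, 6.10, 6.48 and 5.83 in the Damaraland mole-rat, 5.48, 5.63 and 5.87 in the guinea pig, and 8.34 and 8.02 in the mouse. Every mouse library was above every other library in both tissues. Dnajc15, a J-domain protein of the mitochondrial protein import motor, had heart values of 7.47, 7.18 and 8.13 in the naked mole-rat, 9.48, 9.39, 9.17, 9.54 and 8.88 in the Damaraland mole-rat, 7.63, 7.35 and 7.01 in the guinea pig, and 10.77, 10.94 and 10.81 in the mouse. The mouse was highest, and the Damaraland mole-rat lay above the naked mole-rat (-1.70 ± 0.21, adjusted p = 2.86e-06), which overlapped with the guinea pig. Dnajc18 and Dnajc25, both anchored in membranes, were also highest in mouse heart (naked minus mouse -1.92 ± 0.15 and -1.96 ± 0.29).

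Dnajc6, or auxilin, which strips clathrin from vesicles and is best known from neurons, was almost without reads in the mouse. Its heart values were 7.74, 7.53 and 7.53 in the naked mole-rat, 8.14, 8.12, 7.82, 8.99 and 8.09 in the Damaraland mole-rat, 9.18, 9.04 and 9.76 in the guinea pig, and 5.97, 5.81 and 5.71 in the mouse, from 11, 5 and 3 reads in the mouse. The guinea pig was the highest, above every other library. The liver values were 6.85, 6.94, 6.37 and 7.05 in the naked mole-rat, 5.83, 6.41, 6.25, 5.99 and 6.64 in the Damaraland mole-rat, 6.62, 7.86 and 7.06 in the guinea pig, and 4.29 and 4.77 in the mouse, with 0 and 3 reads in the mouse. In liver, too, the mouse was below all others, and in both tissues Dnajc6 was called lower in the mouse against each species (heart differences of the other species from the mouse 1.77 to 3.50, adjusted p at most 9.55e-06). The 6 of 68 members called in the mouse alone in liver (8.82%, beside 12.2% of all genes) were Dnajc30 and Dnaja4, higher, and Dnajc6, Dnajc12, Hspa12a and Hspb1, lower. The call of Dnajc12 was lost without guinea pig liver replicate 1 or 3, without mouse liver replicate 2 and with the replicate block, and that of Hspa12a without Damaraland liver replicate 5, with the block and with quantile normalisation.

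Dnajc10, a J-domain protein and disulfide reductase of the endoplasmic reticulum, had liver values of 9.08, 8.997, 9.13 and 9.08 in the naked mole-rat, 9.17, 9.11, 9.17, 9.16 and 9.02 in the Damaraland mole-rat, 10.59, 10.44 and 10.83 in the guinea pig, and 9.56 and 9.17 in the mouse. The guinea pig was above all others (1.25 over the mouse, adjusted p = 6.99e-06), and so was Dnajc1 (1.16, adjusted p = 0.00016), a call against each species that was lost without guinea pig liver replicate 3. Dnajc10, Dnajc1 and Hspb8 made up the 3 members called in guinea pig liver against each other species (9.38% of all genes). Dnajc3, an inhibitor of the kinase that slows translation under stress, had liver values of 10.39, 10.36, 10.003 and 9.71 in the naked mole-rat, 11.58, 11.61, 11.85, 11.74 and 11.29 in the Damaraland mole-rat, 10.15, 8.89 and 9.48 in the guinea pig, and 12.47 and 12.31 in the mouse. It was lowest in the guinea pig and naked mole-rat, highest in the mouse, and differed between the mole-rats by -1.501 ± 0.21 (adjusted p = 8.65e-06). Of 7 members that are induced by stress in the endoplasmic reticulum (Hspa5, Hsp90b1, Dnajb9, Dnajb11, Dnajc3, Dnajc10 and Hspa13), none was called by limma on average in either tissue (3 in heart and 1 in liver had an unadjusted p under 0.05, and voom called 1 in heart). By limma 23.4% of all genes were called in heart and 28.1% in liver. The medians of the 7 were 0.06 in heart and -0.08 in liver beside -0.01 and 0.02 for all genes.

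In Damaraland liver 4 of 68 members were called against each other species (5.88%, beside 8.81% of all genes), with Hspa2 and Hspa1l higher and Dnaja2 and Dnajc25 lower. Dnajc25 values in liver were 9.38, 9.31, 10.16 and 9.69 in the naked mole-rat, 7.58, 7.90, 7.91, 8.09 and 7.97 in the Damaraland mole-rat, 9.07, 9.64 and 9.37 in the guinea pig, and 9.21 and 9.26 in the mouse. The Damaraland livers were below all others, by -1.47 ± 0.19 against the guinea pig (adjusted p = 3.47e-06). In Damaraland heart 5 members were called in this way (6.76% of all genes): Cct5, Dnajc12, Dnajc17 and Hspa1l higher and Hspb7 lower.

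The small heat shock proteins are the chaperones most tied to heart muscle, and 2 of the 6 genes, Hspb1 and Hspb6, were called lower in mole-rat heart on average (12.6% of all genes were). All 6 average differences were below 0 in heart, with a median of -0.60 beside -0.01 for all genes, although centring libraries on their medians put 1 above 0. In liver 2 of the 4 tested were above 0 and 2 below. Hspb6, a small heat shock protein of muscle, had heart values of 12.98, 12.54 and 11.82 in the naked mole-rat, 12.11, 11.84, 11.82, 10.96 and 11.65 in the Damaraland mole-rat, 13.26, 13.64 and 14.21 in the guinea pig, and 13.46, 13.68 and 13.74 in the mouse. All mole-rat hearts were below all outgroup hearts, and the average difference was -1.60 ± 0.21 (adjusted p = 4e-06). The call in all 4 comparisons was lost without naked mole-rat heart replicate 3, with array weights and with quantile normalisation. In liver Hspb6 was highest in the mouse and its average difference was -0.53 ± 0.18, not called.

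Hspb1, the stress-inducible HSP27, had heart values of 12.15, 11.73 and 11.05 in the naked mole-rat, 11.71, 11.50, 11.70, 10.74 and 11.44 in the Damaraland mole-rat, 13.43, 13.70 and 13.12 in the guinea pig, and 11.71, 12.07 and 12.12 in the mouse. The guinea pig hearts were above all others and the mouse overlapped with the mole-rats. The average difference of -1.16 ± 0.19 (adjusted p = 4.19e-05) therefore rests on the guinea pig: the naked minus mouse difference was -0.32 ± 0.28, and array weights took the average to -0.96. Liver values were 10.69, 9.99, 10.62 and 11.69 in the naked mole-rat, 11.86, 11.48, 11.44, 10.85 and 10.87 in the Damaraland mole-rat, 11.58, 10.46 and 10.78 in the guinea pig, and 8.82 and 7.99 in the mouse. There the mouse was below all others and the average was 1.35 ± 0.26 (adjusted p = 0.00022), so that Hspb1 was called with opposite signs in the tissues, as were 0.841% of all genes. Hspb1 and Dnajc6 were the members called higher in guinea pig heart against each other species (6.61% of all genes in either direction); the call of Dnajc6 was lost without guinea pig replicate 3 and without Damaraland replicate 3.

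Between the mole-rats, 3 small heat shock protein genes were called lower in naked mole-rat heart (15.2% of all genes were) and 1 higher (14.2%). Hspb3 had heart values of 7.12, 6.87 and 7.05 in the naked mole-rat, 10.23, 9.83, 9.68, 9.24 and 9.09 in the Damaraland mole-rat, 9.13, 9.495 and 8.65 in the guinea pig, and 7.60, 7.70 and 7.54 in the mouse. The naked mole-rat hearts were below all others, and the difference from the Damaraland mole-rat was -2.60 ± 0.23 (adjusted p = 6e-08). Hspb2, its partner in a muscle complex, had 8.91, 8.82 and 9.70 in the naked mole-rat, 10.64, 11.03, 10.54, 10.17 and 10.68 in the Damaraland mole-rat, 10.14, 10.87 and 10.34 in the guinea pig, and 10.05, 9.98 and 9.84 in the mouse, with every naked mole-rat heart again below the others and a difference of -1.46 ± 0.22 (adjusted p = 2.83e-05). Hspb8, which works with the co-chaperone BAG3 in clearing damaged muscle protein, had 11.66, 11.33 and 11.69 in the naked mole-rat, 13.27, 13.05, 13.49, 12.86 and 12.79 in the Damaraland mole-rat, 12.47, 12.61 and 12.54 in the guinea pig, and 12.70, 12.85 and 12.95 in the mouse. Naked mole-rat hearts were the lowest (-1.53 ± 0.17 from the Damaraland mole-rat, adjusted p = 1.07e-06). In liver, where its values were 9.70, 9.13, 9.44 and 9.41 in the naked mole-rat, 11.20, 10.98, 11.37, 10.86 and 10.65 in the Damaraland mole-rat, 8.55, 6.55 and 6.66 in the guinea pig, and 10.66 and 10.73 in the mouse, the naked mole-rat was again below the Damaraland mole-rat (-1.59 ± 0.30, adjusted p = 0.000174), and the guinea pig was the lowest.

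Hspb7, the cardiovascular small heat shock protein, was the 1 called higher, with heart values of 15.14, 15.04 and 14.61 in the naked mole-rat, 13.24, 12.79, 12.17, 12.08 and 11.70 in the Damaraland mole-rat, 14.42, 13.98 and 14.64 in the guinea pig, and 14.49, 14.71 and 14.77 in the mouse. Called or not, 3 of the 6 genes were above 0 and 3 below in naked minus Damaraland heart. Damaraland hearts were below all other hearts. The naked mole-rat exceeded the Damaraland mole-rat by 2.54 ± 0.28 (adjusted p = 8.58e-07). The cardiomyocyte marker sum given above was lower in the naked mole-rat, and its part in the Hspb7 difference was not tested. In liver Hspb7 lay between 5.06 and 6.03 in all species. Cryab, the crystallin that pairs with these proteins in muscle, had heart means of 14.10 ± 0.31 in the naked mole-rat (SD, n = 3) and 14.40 ± 0.28 in the Damaraland mole-rat (n = 5), and was not called on average (0.41 ± 0.15).

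**Figure D3:**
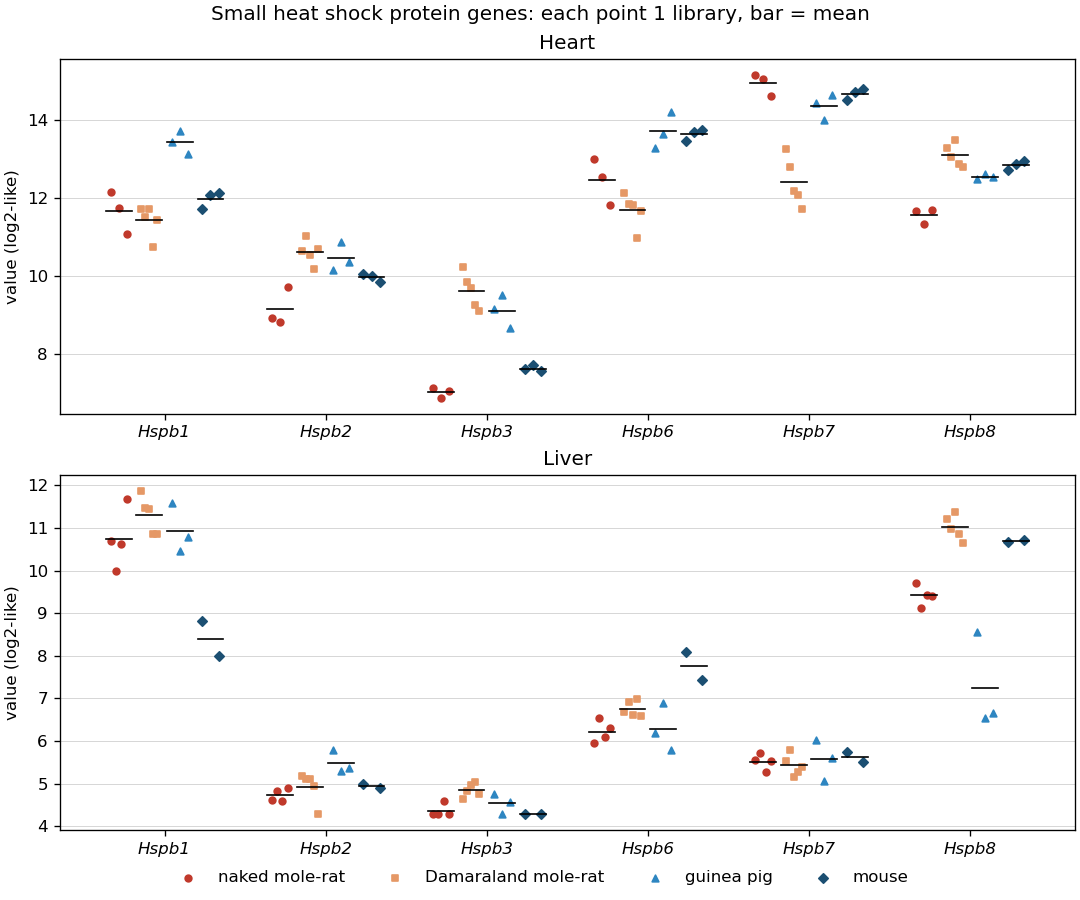
Values (log2-like) of the 6 small heat shock protein genes in heart (top) and liver (bottom); each point is 1 library and the bar is the species mean. In heart Hspb3 and Hspb8 are lowest in the naked mole-rat and Hspb7 in the Damaraland mole-rat, and in liver Hspb1 is lowest in the mouse and Hspb8 in the guinea pig.

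The cytosolic chaperonin is built from equal numbers of its different subunits, and in heart its genes were lower in the naked than in the Damaraland mole-rat. All 8 differences were below 0, from -1.88 (Cct5) to -0.47 (Cct6a), with a median of -0.86 beside -0.0018 for all genes, and stayed below 0 with median centring, quantile normalisation and voom and without any library. Of the 8, 4 were called lower (15.2% of all genes were): Cct3, Cct5, Cct6b and Cct7. Of these Cct6b was near the floor, with 2 to 9 reads in naked mole-rat hearts and a highest species mean of 60.2 scaled reads. Cct5 values in heart were 10.998, 10.81 and 10.73 in the naked mole-rat, 12.50, 12.82, 13.09, 12.01 and 13.23 in the Damaraland mole-rat, 11.15, 11.32 and 11.28 in the guinea pig, and 10.78, 10.93 and 10.77 in the mouse. Damaraland hearts were above every other heart, and those of the other 3 species lay between 10.73 and 11.32. Cct3 had 11.07, 11.06 and 10.76 in the naked mole-rat, 12.11, 12.28, 12.54, 11.84 and 12.41 in the Damaraland mole-rat, 11.58, 11.40 and 11.68 in the guinea pig, and 11.01, 10.96 and 10.89 in the mouse and Cct7 had 11.29, 11.13 and 11.45 in the naked mole-rat, 12.17, 12.60, 12.74, 12.05 and 12.53 in the Damaraland mole-rat, 11.62, 11.71 and 11.76 in the guinea pig, and 10.95, 11.08 and 10.98 in the mouse. Again the Damaraland mole-rat was the highest and did not overlap with the other species, with naked minus Damaraland differences of -1.28 ± 0.17 and -1.13 ± 0.17 (adjusted p = 4.9e-06 and 1.93e-05). The call of Cct7 was lost with quantile normalisation, which left 3, and that of Cct6b without naked mole-rat replicate 1 or Damaraland replicate 4 and with the replicate block.

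The naked mole-rat was near the mouse in these genes: against the mouse limma and voom called no subunit in naked mole-rat heart (1 had an unadjusted p under 0.05), with 4 of 8 differences above 0 and 4 below. Of all genes, limma called 38.2% in this comparison. The Damaraland mole-rat was above the mouse in all 8 and called in 4 (Cct3, Cct5, Cct6a and Cct7; 16.9% of all genes were called higher), and the call of Cct6a was lost without Damaraland replicate 3. Cct2, Cct4 and Cct8 were called in no comparison in heart, with naked minus Damaraland differences of -0.56 ± 0.16, -0.52 ± 0.19 and -0.69 ± 0.18. Tcp1, the remaining ring subunit, which the symbol pattern leaves out, had 10.84 ± 0.48 (SD, n = 3) in naked and 10.87 ± 0.24 (n = 5) in Damaraland heart, a difference of -0.04 ± 0.20 that was not called.

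In liver the subunits did not share a direction between the mole-rats, with 3 of 8 differences above 0 and 5 below and a median of -0.22. Cct5 and Cct6b were called lower in the naked mole-rat (17.6% of all genes were). Cct5 values were 10.31, 10.16, 10.59 and 10.65 in the naked mole-rat, 11.98, 11.50, 11.69, 11.63 and 11.18 in the Damaraland mole-rat, 10.83, 10.37 and 10.58 in the guinea pig, and 10.87 and 10.97 in the mouse, and the Damaraland livers were again above all others (-1.17 ± 0.17, adjusted p = 7.78e-06). Cct6b, a relative of Cct6a known from testis, had 5.47, 5.52, 5.02 and 5.20 in the naked mole-rat, 6.42, 6.95, 6.66, 6.87 and 7.08 in the Damaraland mole-rat, 6.07, 6.03 and 6.26 in the guinea pig, and 5.33 and 5.37 in the mouse, low in every species and highest in the Damaraland mole-rat (-1.49 ± 0.16, adjusted p = 3.98e-07). On average over the mole-rats limma and voom called no subunit in either tissue (4 in heart and 2 in liver had an unadjusted p under 0.05), with medians of 0.24 in heart and 0.21 in liver. Of all genes, limma called 23.4% in heart and 28.1% in liver.

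The mitochondrial chaperonin consists of Hspd1 (HSP60), which forms the chamber, and Hspe1 (HSP10), its lid, and the pair shares a promoter. Hspe1 had heart values of 10.92, 11.01 and 10.12 in the naked mole-rat, 10.9997, 11.73, 11.74, 11.43 and 10.58 in the Damaraland mole-rat, 8.73, 8.45 and 9.61 in the guinea pig, and 9.95, 9.78 and 9.82 in the mouse. Mole-rat hearts were above all outgroup hearts, and the average difference was 1.60 ± 0.22 (adjusted p = 6.77e-06), although the naked mole-rat was not called against the mouse (0.83 ± 0.33). Its liver values were 11.72, 11.56, 12.24 and 12.01 in the naked mole-rat, 11.71, 11.78, 11.58, 11.91 and 11.38 in the Damaraland mole-rat, 9.40, 9.73 and 9.59 in the guinea pig, and 9.56 and 10.87 in the mouse. Every mole-rat liver was above every outgroup liver, by 1.88 ± 0.18 on average (adjusted p = 8.95e-08), and the call in all 4 comparisons was lost without mouse replicate 1. Hspd1 did not follow it in heart, where its average difference was -0.03. In liver Hspd1 had 14.08, 13.89, 14.13 and 13.96 in the naked mole-rat, 13.70, 13.33, 13.33, 13.55 and 12.80 in the Damaraland mole-rat, 12.67, 12.47 and 12.58 in the guinea pig, and 12.63 and 13.14 in the mouse. The naked mole-rat was the highest, and the average difference of 0.95 ± 0.15 (adjusted p = 2.94e-05) stayed just under the size needed for a call. Hspe1 and Hspd1 have 6 and 5 pseudogene symbols in the mouse gene list, so their counts are uncertain where reads were split among copies.

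**Figure D4:**
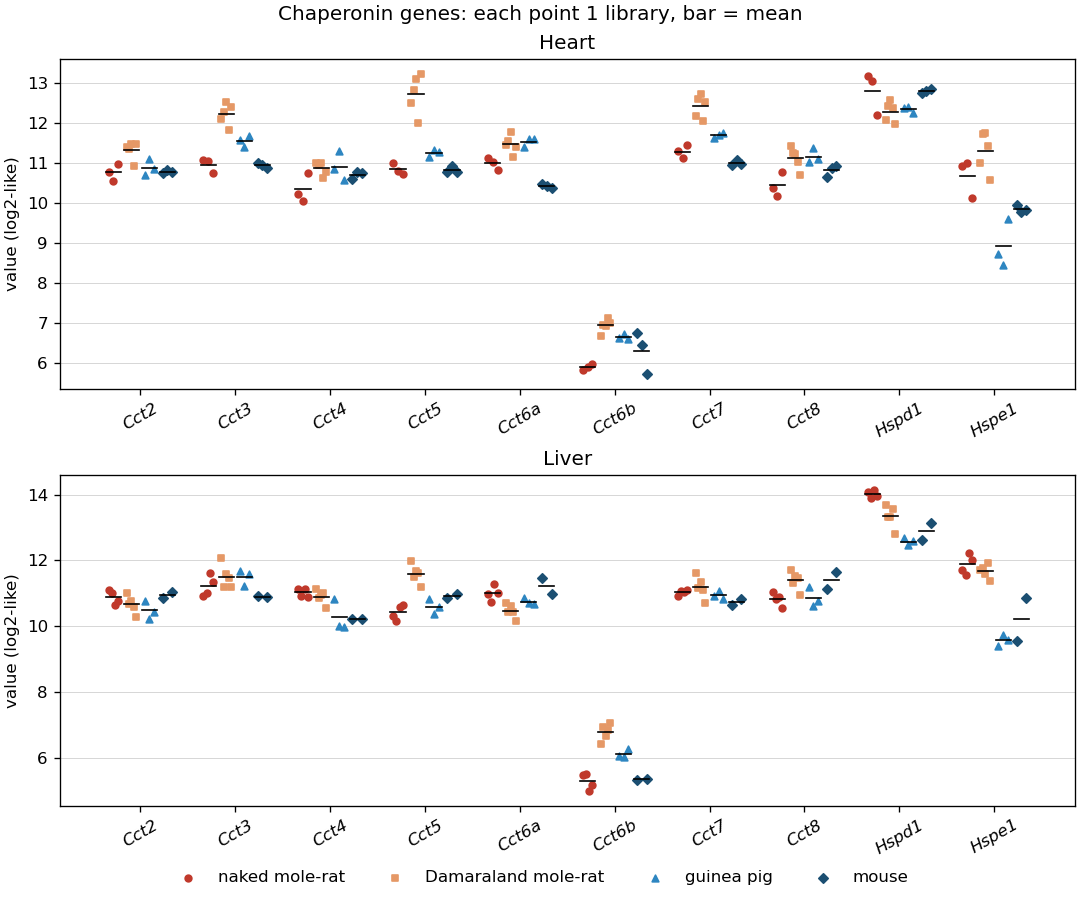
Values (log2-like) of the chaperonin genes in heart (top) and liver (bottom); each point is 1 library and the bar is the species mean. In heart the Damaraland mole-rat is highest for Cct3, Cct5 and Cct7, and in both tissues Hspe1 is higher in the mole-rats than in the outgroups.

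Across tissues, the difference between the mole-rats was called in both with the same sign for 10 of the 68 members tested in both (14.7%, beside 13.6% of 10109 genes). No member was called in both with opposite signs, beside a further 1.39% of all genes. Of the 10, Dnaja1, Dnajb9, Dnajc27 and Hspa12a were higher in the naked mole-rat and Cct5, Cct6b, Hsp90aa1, Hspa1l, Hspa2 and Hspb8 were lower. For the average of the mole-rats against the outgroups, 4 were called in both with the same sign (5.88%, beside 10.1% of all genes): Dnajc17, Dnajc27 and Hspe1 higher, and Hsp90aa1 lower. The tissues share animals, so these counts are not independent.

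**Figure D5:**
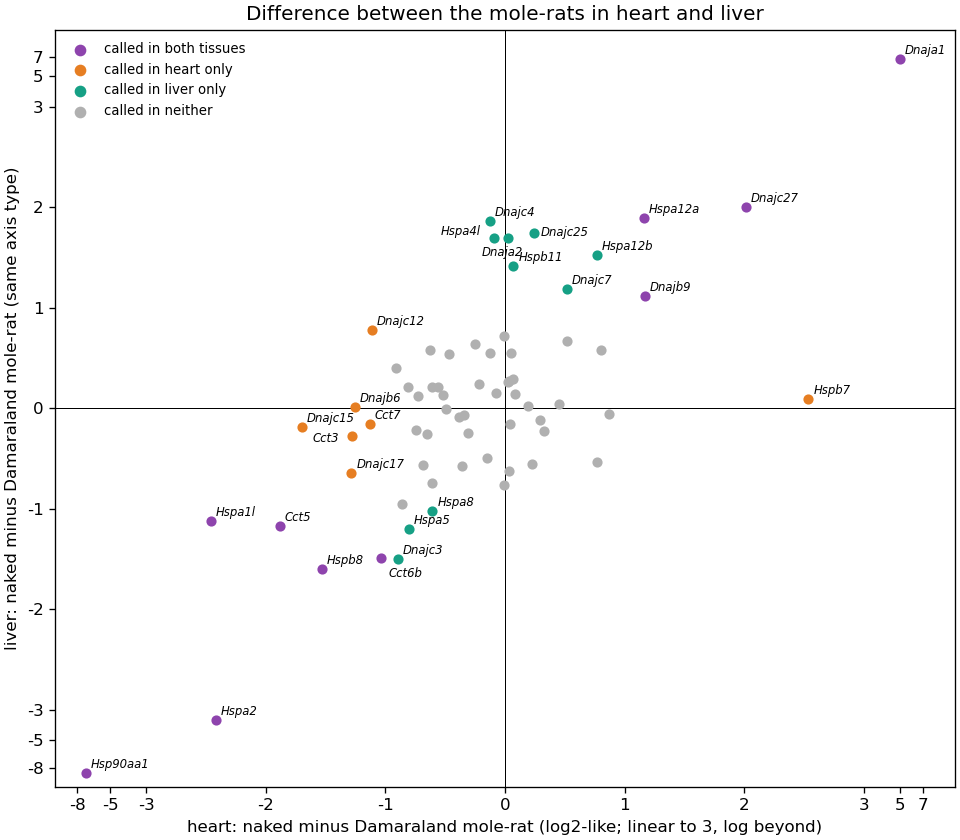
Naked minus Damaraland difference of each member in heart (horizontal) and liver (vertical) on the log2-like scale, linear to 3 and logarithmic beyond; each point is 1 of the 68 members tested in both tissues, coloured by where it was called. The 10 members called in both tissues lie toward the lower left and upper right corners, with Hsp90aa1 and Dnaja1 at the ends.

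The classical heat shock response is read from genes that HSF1 induces. Of 12 such members, 10 have a row. On average 1 was called higher (Hspe1; 10.8% of all genes were) and 2 lower (Hsp90aa1 and Hspb1; 12.6%) in mole-rat heart, with a median of -0.51. In liver 3 were called higher (Hspe1, Hspb1 and Hspb8; 15.1% of all genes) and 1 lower (Hsp90aa1; 13%), with a median of 0.28. The medians of all genes were -0.01 and 0.02. Most of these average calls came from 1 species. In liver Hsp90aa1 was called lower in the naked mole-rat alone, Hspb1 in the mouse alone and Hspb8 in the guinea pig alone. Only Hspe1 was called there in all 4 comparisons between mole-rats and outgroups. In heart Hsp90aa1 was called lower in the naked mole-rat alone and Hspb1 higher in the guinea pig alone. Hsf1 itself had heart means of 8.81 ± 0.08 in the naked mole-rat (SD, n = 3), 9.57 ± 0.38 in the Damaraland mole-rat (n = 5), 8.77 ± 0.19 in the guinea pig (n = 3) and 9.03 ± 0.04 in the mouse (n = 3), with an average difference of 0.29 ± 0.14, and -0.01 ± 0.16 in liver. Neither was called.

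The partners of these chaperones were counted by the same rule, by which 10.8% of all genes were higher and 12.6% lower in heart and 15.1% and 13% in liver. Of 25 Hsp90 co-chaperones tested in heart, 3 were called higher and 5 lower on average (median -0.28), and of 23 in liver 3 were called, all lower (median -0.39). Cdc37l1, a relative of the HSP90 partner that loads kinases, was listed at 0 reads in every naked mole-rat library of both tissues and had means of 9.58 ± 0.23, 11.12 ± 0.35 and 10.78 ± 0.04 in Damaraland, guinea pig and mouse heart (SD, n = 5, 3 and 3). Ahsa2, from a family of activators of the HSP90 ATPase, was lower in both mole-rats in heart (-2.38 ± 0.14, adjusted p = 3.63e-10) and liver (-3.27 ± 0.14, adjusted p = 4.34e-12). Nudc and Fnip2 were higher in heart in all 4 comparisons (1.17 and 1.64 on average). Of 17 Hsp70 co-chaperones, 1 was called higher and 1 lower in heart (median -0.03) and 2 higher and 3 lower in liver (median -0.07). Sgtb, a tetratricopeptide co-chaperone, was higher in both mole-rats in heart (1.76 ± 0.12, adjusted p = 1.21e-09), and Bag3, the partner of Hspb8, was not called on average (-0.82 ± 0.21 in heart, 0.35 ± 0.17 in liver). Of 18 prefoldin, chaperonin and tubulin folding partners, 1 was called higher and 3 lower in heart (median -0.03) and 1 higher and 2 lower in liver (median -0.41); among them Pfdn1, a prefoldin subunit, was listed at 0 reads in all Damaraland livers and lower in both mole-rats there.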

How the data were processed

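The deposited heart and liver tables hold 14 libraries each, and 26 further columns that match no sample described here were not used. The authors' values are variance-stabilised log2-like levels made in DESeq2, per the submitters' processing notes, which also name Salmon, cutadapt and the build GRCm38; the annotation and the matching of genes between species are not given in the sources used here. Gene length differences between species are not corrected. Inverting the transform gave whole reads for 100% of values in every library (tolerance 0.01), which supplied depths and scaled reads.

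Genes with a mean under the value of 0 reads plus 1 were left out. limma 3.58.1 in R 4.3.3 was fitted per tissue, with 1 mean per species and a variance trend, and p-values were Benjamini-Hochberg adjusted over all genes tested; the threshold was 0.05 with a difference of at least 1. Comparisons were the average of the mole-rats minus that of the outgroups and the 6 pairs of species; between tissues calls alone were compared. The pipeline was tested on simulated data. Libraries of a species come from separate animals by their labels. Members, gene lists and tests were chosen with earlier results of these data known. The text names members called in all 4 comparisons between mole-rats and outgroups, up to 5 in each direction for each species alone and for the naked against the Damaraland mole-rat, and a fixed set of well-known members; Dnajb4, Dnajb6, Dnajc8, Hspa12b and Hspb2 were added after their values were seen. Alternatives covered thresholds, filters, normalisation, variance model, replicate number, voom and left-out libraries. The age label of 1 Damaraland animal differs between its libraries (48 months for heart, 36 for liver).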

Additional observations from a re-analysis of the deposited data

Results flagged for a closer look

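Damaraland heart replicate 4 stood far from the other 4 Damaraland hearts for 4 members: Dnajc6 at 8.987 (others 7.82 to 8.14), Hspb1 at 10.74 (11.44 to 11.71), Cct2 at 10.93 (11.36 to 11.47) and Dnaja1 at 5.583, which is 1 read where the others had 0. The check was made on 116 sets of values from groups of 4 or 5 libraries, and chance gives such a gap in about 1 in 20.

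A few members differed in opposite directions in the tissues, in every library of the groups compared, without a test of the difference itself. Cct6a was lower in the naked than in the Damaraland mole-rat in heart (-0.469) and higher in liver (0.539). Hspa12a was lower in the Damaraland mole-rat than in the mouse in heart (-1.70) and higher in liver (1.06), and lower in the guinea pig than in the mouse in heart (-1.01) and higher in liver (1.81).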

How the results depend on the processing

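Dropping the size threshold raised the counts of members called in heart from 11 to 38 on average, from 19 to 43 between the mole-rats, from 2 to 7 in both mole-rats, and to 10, 12, 15 and 14 in the naked mole-rat, Damaraland mole-rat, guinea pig and mouse alone. In liver they rose to 36, 38, 6, 10, 11, 8 and 15 in the same order. Testing against a difference of 1 left 6 on average, 10 between the mole-rats, 0 in both mole-rats, 1 in the Damaraland mole-rat and 0 in the guinea pig alone in heart, and 4, 11, 0, 1 and 1 in liver, with 2 in the mouse alone. Fewer members are tested above the table median, which left 1 in the guinea pig and 3 in the mouse alone in heart and 2 in the Damaraland mole-rat and 3 in the mouse alone in liver. Requiring every species mean at least 1 above the value of 0 reads left 1 each in the naked mole-rat and the guinea pig alone in heart. In heart, quantile normalisation left 0 in both mole-rats, array weights gave 4 in the naked mole-rat alone, and voom gave 4 in the naked mole-rat and 7 in the guinea pig alone; in liver voom gave 5 in the guinea pig alone. The cause of these last changes was not tested. The share of all genes called under each alternative is not given here. The counts in this section therefore show how the calls depend on the processing and do not set the members apart from other genes.

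Leaving out each library gave 10 to 11 (heart) and 11 to 14 (liver) called on average and 17 to 22 and 18 to 21 between the mole-rats. Members shifted in both mole-rats numbered 1 to 3 in heart (1 without mouse replicate 1) and 1 to 2 in liver (1 without guinea pig replicate 1 or mouse replicate 1). In heart the naked mole-rat alone had 2 to 4 (4 without its replicate 3, the shallowest library) and the guinea pig alone 1 to 4 (1 without Damaraland replicate 3, 4 without guinea pig replicate 1), and in liver the mouse alone had 5 to 9. A mouse liver left alone is assumed to vary like the other groups.

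Of the members called on average, 11 in heart and 12 in liver, no sign changed under any alternative. Calls were lost for Hspb1 in heart with array weights (-0.96), for Dnajc8 in heart with the replicate block (0.92) and without any of 5 libraries named above, for Hspa12a (0.98), Hspa2 (0.995), Hspa1l (0.96) and Dnajc17 (0.97) in liver with quantile normalisation, and for Hspa2 without mouse liver replicate 1 (0.88). Of the named members not called, 6 in heart and 7 in liver changed sign, with differences of at most 0.133 and 0.123. Among them were Hspd1 in heart (0.020 with median centring, 0.061 with quantile normalisation, 0.16 with array weights, 0.011 with the replicate block, -0.12 to 0.12 without single libraries) and Hsp90b1 in liver (-0.016 with array weights, -0.00356 with the replicate block, -0.034 to 0.12 without single libraries). Hspd1 in liver came to be called with the replicate block (1.01), without Damaraland replicate 5 (1.02) and without mouse replicate 2 (1.08). Replicate numbers do not pair animals across species: same-numbered libraries had median correlations of deviations of -0.02 in heart and 0.03 in liver. With the replicate number as a block, 10 members were called on average in heart and 13 in liver, 20 and 21 between the mole-rats, and 2 and 2 in both mole-rats. Counts rest on 2 to 5 libraries per group, and differences under 1 were not called whatever their p.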

Other observations

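Of 29 folding genes of the endoplasmic reticulum that carry other symbols, 9 were called in mole-rat liver on average, all of them lower, beside 13% of all genes lower and 15.1% higher, with a median of -0.26 where all genes had 0.02. In all 4 comparisons between mole-rats and outgroups, 4 were lower: Xbp1, the transcription factor of the unfolded protein response, Ern1, the sensor that activates it by splicing, Edem1, which sends misfolded glycoproteins to degradation, and Txndc5, a disulfide isomerase. Xbp1 had liver means of 10.01 ± 0.35 in the naked mole-rat (SD, n = 4), 10.34 ± 0.29 in the Damaraland mole-rat (n = 5), 11.64 ± 0.35 in the guinea pig (n = 3) and 12.20 ± 0.16 in the mouse (n = 2), an average difference of -1.74 ± 0.16 (adjusted p = 5.24e-08). Ern1, Edem1 and Txndc5 gave -2.10 ± 0.15, -1.77 ± 0.15 and -1.98 ± 0.16. The summed reads of all 29 genes were 0.43% to 0.577% in naked mole-rat liver, below all other livers. In the Damaraland mole-rat they were 0.677% to 0.997%, overlapping with the guinea pig (0.705% to 0.859%) and the mouse (0.824% to 0.93%). In heart 2 of 29 were called higher and 5 lower (10.8% and 12.6% of all genes).

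Of 15 genes of mitochondrial folding and proteolysis tested in each tissue, 3 were called in heart on average, all lower (12.6% of all genes were), and 1 higher and 2 lower in liver (15.1% and 13%). Atf5, a transcription factor of the mitochondrial stress response, was lower in both mole-rats in heart, with means of 7.09 ± 0.44 (SD, n = 3) and 7.42 ± 0.08 (n = 5) against 8.49 ± 0.25 and 9.46 ± 0.06 (n = 3 each) in guinea pig and mouse, a difference of -1.72 ± 0.13 (adjusted p = 6.77e-09).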
